A study of Rattus norvegicus with 24 samples.

Results

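The 6 glutamate receptor subunit genes described here belong to the NMDA, AMPA and metabotropic receptor families. Those of the NMDA receptor are Grin1 (ENSRNOG00000011726), Grin2a (ENSRNOG00000033942) and Grin2b (ENSRNOG00000008766). Those of the AMPA receptor are Gria1 (ENSRNOG00000045816) and Gria4 (ENSRNOG00000006957), and Grm5 (ENSRNOG00000016429) encodes a metabotropic glutamate receptor. They were chosen by Ensembl ID from the 32552 genes of the deposited count tables, and all 6 were present in all 24 tables on the chromosome required for their symbol. RNA came from tissue punches of the ventral tegmental area (VTA) and the nucleus accumbens (NAc) of Sprague Dawley rats of both sexes that had received fentanyl, an opioid, or saline. The series title speaks of withdrawal and of a choice between the drug and food, and per the labels tissue was taken at the time at which the last choice session would have been run. In the VTA there were 3 libraries from fentanyl females, 2 from saline females, 3 from fentanyl males and 2 from saline males. In the NAc there were 4 libraries from fentanyl females, 3 from saline females, 4 from fentanyl males and 3 from saline males. The libraries came from 14 rats, 10 of which gave both regions. Replicates are therefore separate animals, named below by the number in the animal code. The sources used here do not give age, dose or the schedule of treatment. The VTA libraries held 4.49 M to 6.3 M counts, and the NAc libraries 3.46 M to 5.01 M. Genes of the mitochondrial chromosome took 17.6% to 26.9% of the counts in the VTA and 22.1% to 36.7% in the NAc. Marker genes of the regions and of cell types were not analysed here, because the tables give Ensembl IDs without symbols.

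Fast excitatory transmission in the brain runs through AMPA receptors, tetrameric channels built from Gria subunits, whose subunit makeup sets their conductance and kinetics. NMDA receptors combine the obligatory Grin1 subunit with Grin2 subunits, pass calcium, and need both glutamate and depolarisation to open. Grm5 encodes a receptor coupled to a G protein that mobilises calcium from internal stores and is abundant in the spiny projection neurons of the striatum. In the NAc and on dopamine neurons of the VTA, changes in AMPA and NMDA receptor composition have been widely studied as a form of plasticity after exposure to addictive drugs.

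In the coordinates of the deposited tables, for which no build is stated, Grin1 spans 2506896 to 2534663 on the minus strand of chromosome 3. Grin2a spans 5930298 to 6119990 on the plus strand of chromosome 10, and Grin2b spans 169560387 to 169999873 on the minus strand of chromosome 4. Gria1 lies on the plus strand of chromosome 10 from 42614713 to 42760200, and Gria4 on the minus strand of chromosome 8 from 1548146 to 2045817. Grm5 lies on the plus strand of chromosome 1 from 151439409 to 151783392. The summed exon annotation runs from 2976 nt for Gria1 to 5462 nt for Gria4. The annotated span falls well short of the RefSeq gene span for Gria1 (145 kb against 320 kb), Grin2a (190 kb against 424 kb) and Grm5 (344 kb against 575 kb), and counts refer to the shorter annotation. Features that share exon bases with Grin1 or Grin2b lie on the opposite strand and had at most 3 counts in any library. The feature that shares bases with Gria4 lies on the same strand and had 1 to 15 counts, against 586 to 1119 for Gria4 in the NAc.

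RefSeq sequence of the GRCr8 build around the transcription start, 250 bases before it and 50 after it, was at hand for 3 of the 6 genes. All 3 are shown, and they were not chosen by their levels. No such window was at hand for Grin2a, Grin2b and Gria1, so they do not cover the regional patterns described next. Whether CG content goes with a regional difference was not tested. Each is written 5′ to 3′ on the gene's own strand, and capitals mark CG dinucleotides, the main sites of DNA methylation in vertebrates.
Grin1, chr3:28528705-28529004, minus strand: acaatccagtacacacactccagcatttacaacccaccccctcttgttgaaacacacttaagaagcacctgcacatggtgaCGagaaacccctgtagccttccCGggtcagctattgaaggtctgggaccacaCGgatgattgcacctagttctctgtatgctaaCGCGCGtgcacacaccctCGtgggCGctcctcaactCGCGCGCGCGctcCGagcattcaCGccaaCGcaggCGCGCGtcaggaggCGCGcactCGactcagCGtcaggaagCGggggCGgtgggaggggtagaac
Gria4, chr8:10319832-10320131, minus strand: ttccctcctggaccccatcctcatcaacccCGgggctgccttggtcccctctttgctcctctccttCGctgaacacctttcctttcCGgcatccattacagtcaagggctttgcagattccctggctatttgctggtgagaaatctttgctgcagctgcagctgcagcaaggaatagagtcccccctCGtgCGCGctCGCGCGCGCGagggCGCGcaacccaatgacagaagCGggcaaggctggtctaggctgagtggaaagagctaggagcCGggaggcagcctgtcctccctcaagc
Grm5, chr1:150733503-150733802, plus strand: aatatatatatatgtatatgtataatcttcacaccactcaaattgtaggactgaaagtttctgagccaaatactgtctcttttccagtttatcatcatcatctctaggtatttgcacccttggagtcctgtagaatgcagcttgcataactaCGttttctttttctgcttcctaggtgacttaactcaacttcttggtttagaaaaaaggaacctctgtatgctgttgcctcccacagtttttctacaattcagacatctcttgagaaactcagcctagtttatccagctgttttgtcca
The motif searched was CG, which reads the same on both strands. The Grin1 window held 25 CG and 59.7% G or C, and the Gria4 window held 15 CG and 60.3% G or C. The Grm5 window held 1 CG and 37.3% G or C. Over the 33469 RefSeq windows of this length the median was 7 CG and 51.7% G or C, and 94.5% held at least 1 CG. At least as many CG as in Grin1 were found in 16.6% of the windows, and at least as many as in Gria4 in 32.0%. These counts describe the windows only, since methylation was not measured.

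Region set Grin1, Grin2b, Gria1 and Grm5 apart more than any comparison of treatment or sex did. For Gria4 and Grin2a the log2 estimates for fentanyl in NAc females, given below, were larger in size than the regional ones. Of the 6, 5 were lower in the VTA than in the NAc of the same rats, and Grin2a did not pass the test. The test was edgeR's quasi-likelihood F test over the 20 libraries of the 10 rats with both regions, with rat as a block and Benjamini-Hochberg adjustment over all genes, and a gene was called at an adjusted p under 0.05. The background is high: 66.0% of the 12901 genes tested were called in either direction, and 33.5% were called lower in the VTA. Among the 2580 tested genes with the longest spans, which held all members but Grin1, 42.8% were called lower in the VTA. The median log2 difference of those long genes was -0.11. The members' median log2 difference was -1.47, against a median of 0 over all genes tested. In bulk tissue, fewer cells of a type and less RNA per cell cannot be told apart. CPM here are counts relative to library totals that were scaled over all 24 libraries by TMM, which matches libraries on the bulk of their genes. They compare libraries, not genes.

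Grm5 showed the largest regional difference of the 6. Its lowest, median and highest values were 21.4, 28.9 and 49.6 CPM in the 10 VTA libraries, against 181, 255 and 302 CPM in the 14 NAc libraries. Every NAc library lay above every VTA library. How many of all genes tested separate the regions in this way was not counted, for Grm5 or for the genes below. Within rats the log2 difference, VTA minus NAc, was -3.04 ± 0.12 (SE), a ratio of 0.121, with an edgeR adjusted p of 1.08e-12. It was lower in the VTA in 10 of 10 rats, by a log2 difference of -3.45 to -2.28.

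Gria1, the AMPA subunit studied most in activity-dependent insertion at synapses, had 28, 48.9 and 69.2 CPM as its lowest, median and highest values in the VTA, against 189, 241 and 269 CPM in the NAc. The regions did not overlap, and the within-rat log2 difference was -2.28 ± 0.08 (SE; edgeR adjusted p = 2.58e-14). Grin2b, an NMDA subunit that lengthens the receptor's currents, had 68.7, 123 and 176 CPM in the VTA, against 407, 568 and 628 CPM in the NAc. Again the regions did not overlap, with a log2 difference of -2.14 ± 0.08 (SE; edgeR adjusted p = 5.82e-14). Both genes were lower in the VTA in 10 of 10 rats.

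Grin1, the subunit that every NMDA receptor contains, differed less. It had 258, 290 and 347 CPM as its lowest, median and highest values in the VTA, against 444, 524 and 576 CPM in the NAc, without overlap. The log2 difference was -0.80 ± 0.07 (SE; edgeR adjusted p = 5.31e-09), and 10 of 10 rats were lower in the VTA. Grin2a, which encodes an NMDA subunit with faster channel kinetics than Grin2b, had 28.4, 65.7 and 85.2 CPM in the VTA, against 44.1, 60.3 and 115 CPM in the NAc. Its log2 difference was -0.02 ± 0.20 (SE; edgeR adjusted p = 0.944), and 5 of 10 rats were lower in the VTA, and the regions overlapped.

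Gria4, an AMPA subunit with fast kinetics that is common in interneurons, had 112, 131 and 200 CPM in the VTA, against 132, 195 and 372 CPM in the NAc. The regions overlapped in their ranges, but 9 of 10 rats were lower in the VTA, with a log2 difference of -0.59 ± 0.11 (SE; edgeR adjusted p = 0.000313). The exception was saline female 2, with 157 CPM in the VTA and 132 CPM in the NAc. The mitochondrial share was also lower in the VTA library of each of the 10 rats. With that share as a covariate, an alternative added after seeing the data, the Gria4 difference was -0.08 ± 0.19 (SE; edgeR adjusted p = 0.772) and was no longer called. Grin1, Grin2b, Gria1 and Grm5 stayed called in that fit, which called 4311 of the 12901 genes, with differences from -2.79 for Grm5 to -0.86 for Grin1. Region and the mitochondrial share went together in all 10 rats, so that fit cannot fully tell them apart.

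**Figure D1:**
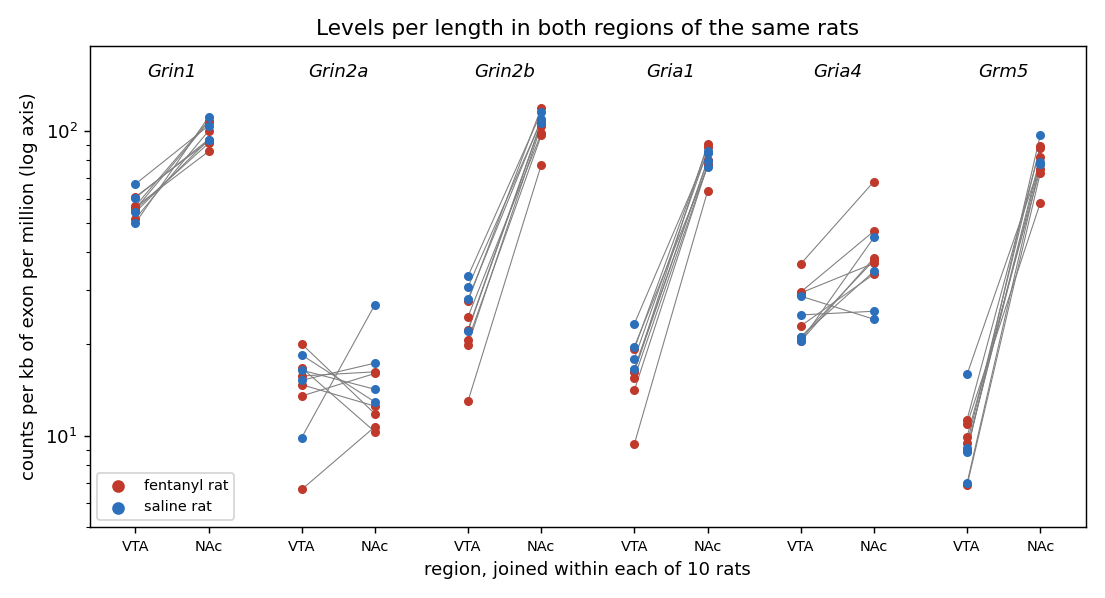
CPM per kilobase of annotated exon (log axis) of the 6 genes in the VTA and NAc of the 10 rats that gave both, joined within rats, with fentanyl rats in red and saline rats in blue. The lines of Grin1, Grin2b, Gria1 and Grm5 are all lower at the VTA end, those of Gria4 in 9 of 10 rats, and those of Grin2a in 5 of 10.

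The order of the genes also differed between regions once levels were given per length, as CPM divided by kilobases of annotated exon. In the VTA, Grin1 was the highest of the 6 at 56.7 ± 4.93, followed by Gria4 at 25.5 ± 5.42 and Grin2b at 24.3 ± 5.98 (SD, n = 10 libraries). Gria1 at 16.8 ± 3.67, Grin2a at 14.7 ± 3.94 and Grm5 at 9.83 ± 2.57 were the lowest there. Neighbours whose means differed by less than the larger SD were Gria4 and Grin2b, and Gria1 and Grin2a. In the NAc, Grin2b had 106 ± 10.2 and Grin1 100 ± 7.67, followed by Gria1 at 81.4 ± 7.12 and Grm5 at 81.3 ± 9.41 (SD, n = 14 libraries). Gria4 at 37.5 ± 11 and Grin2a at 15.2 ± 4.41 were the lowest in the NAc. There the neighbours within the larger SD were Grin2b and Grin1, and Gria1 and Grm5. These levels depend on the exon annotation of each gene. For Gria1, Grin2a and Grm5 the annotated span falls short of the RefSeq span, as given above, but exon lengths were not compared.

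Ratios of these per-length levels within a library describe how the members stood to each other. Other Gria and Grin subunit genes were not analysed, so the ratios do not give the whole mix of subunits. Grin2a amounted to 0.629 ± 0.191 of Grin2b in the VTA, against 0.143 ± 0.0337 in the NAc (SD, n = 10 and 14). The lowest VTA library had 0.295 and the highest NAc library 0.235, so the regions did not overlap. Gria4 amounted to 1.62 ± 0.655 of Gria1 in the VTA, against 0.469 ± 0.162 in the NAc. Here the lowest VTA library had 1.04 and the highest NAc library 0.851. Grin1 relative to the sum of Grin2a and Grin2b was 1.53 ± 0.482 in the VTA, against 0.831 ± 0.0732 in the NAc, and these ranges, 1.18 to 2.86 and 0.738 to 0.973, did not overlap either. A ratio of this kind shows unequal levels, and does not give the makeup of receptors at synapses.

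Within the NAc, fentanyl was set against saline in each sex to ask for the sex-specific effects that the series title names. In NAc females, Gria4 rose with fentanyl and the other 5 genes did not pass the test. The background was 13.5% of the 13248 genes called, 8.05% of all genes being called higher with fentanyl, so 1 of 6 members is near the background share. The members' median log2 change was -0.12, against 0 over all genes tested.

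Gria4 had 372, 256, 205 and 189 CPM in NAc libraries of fentanyl females 1, 2, 7 and 8, against 140, 132 and 151 CPM in those of saline females 1, 2 and 4. The lowest fentanyl library exceeded the highest saline library, and fentanyl female 1 stood far above the rest. The log2 fold change was 0.87 ± 0.18 (SE), a ratio of 1.82, with an edgeR adjusted p of 0.00577. Without fentanyl female 1 it was 0.64 with an edgeR adjusted p of 0.00199, and leaving out any one of the 14 NAc libraries kept the call. The mitochondrial share of counts followed the same split, with 36.7%, 31%, 29.4% and 29.2% in the 4 fentanyl females, against 22.1%, 26.1% and 25.1% in the 3 saline females. With that share as a covariate the Gria4 change was 0.25 ± 0.17 (SE; edgeR adjusted p = 0.579), and 6 of 13248 genes were called in all. Fentanyl and a high mitochondrial share cannot be told apart among these 7 libraries, since their shares do not overlap.

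Grin2a was the member with the next largest change in NAc females. It had 53.1, 45.4, 69.1 and 60.1 CPM in fentanyl females 1, 2, 7 and 8, against 60.5, 115 and 78.5 CPM in saline females 1, 2 and 4. The groups overlapped, and saline female 2 was the highest of all. Its log2 fold change of -0.56 ± 0.25 (SE) did not pass the test (edgeR adjusted p = 0.156), and was -0.28 without saline female 2. Grin1, Grin2b, Gria1 and Grm5 had log2 fold changes of -0.08, -0.15, -0.13 and -0.10 with SEs of 0.10 to 0.11, and edgeR adjusted p-values of 0.365 to 0.619. A change as large as that of Gria4 lay far outside these errors. The Gria4 to Gria1 ratio per length was 0.611 ± 0.218 in fentanyl females and 0.299 ± 0.0135 in saline females (SD, n = 4 and 3), with ranges of 0.416 to 0.851 and 0.286 to 0.313.

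In NAc males none of the 6 genes was called, and edgeR called 0% of the 13248 genes tested, with 850 at an unadjusted p under 0.05 and 6 called by DESeq2. Gria4 had 209, 185, 201 and 175 CPM in fentanyl males 1, 2, 3 and 7, against 189, 244 and 218 CPM in saline males 1, 3 and 4. The groups overlapped, and the log2 fold change was -0.17 ± 0.18 (SE; edgeR adjusted p = 0.914). The other 5 genes had log2 fold changes of -0.08 to 0.07, with SEs of 0.10 to 0.11 except for Grin2a, whose SE was 0.26. Over both sexes the Gria4 change was 0.35 ± 0.12 (SE; edgeR adjusted p = 0.0985), where 7.51% of all genes were called and none of the members. Leaving out 1 NAc library at a time changed that background from 995 genes to between 315 and 1299. Without fentanyl female 8 the Gria4 adjusted p was 0.024 by edgeR, and without any other single library it was 0.0565 to 0.201. With all libraries it was 0.0484 by DESeq2. With the mitochondrial share as a covariate the change over both sexes was 0.06 ± 0.10 (SE; edgeR adjusted p = 0.799).

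The difference between the sexes was tested directly as the female effect minus the male effect. For Gria4 this log2 difference was 1.03 ± 0.25 (SE) and missed the threshold with an edgeR adjusted p of 0.061, where 0.770% of all genes were called, 102 genes with all libraries and 20 to 299 without single ones. It passed without fentanyl female 1, 7 or 8, at edgeR adjusted p-values of 0.0215, 0.0348 and 0.00943, and by DESeq2 at 0.00376. Leaving out any other NAc library gave edgeR adjusted p-values of 0.0563 to 0.231, and the mitochondrial share as a covariate gave a difference of 0.36 with an edgeR adjusted p of 0.952. The saline rats of both sexes were also set against each other. Gria4 had 140, 132 and 151 CPM in saline females 1, 2 and 4, against 189, 244 and 218 CPM in saline males 1, 3 and 4. These saline groups did not overlap. The log2 difference, saline females minus saline males, was -0.63 ± 0.19 (SE) with an edgeR adjusted p of 0.208, where 0.377% of all genes were called, 50 genes with all libraries and 10 to 136 without single ones. With an adjusted p of 0.00938 by edgeR, it passed when fentanyl female 1 was left out of the fit, and without any other single library the adjusted p was 0.101 to 0.782. With the mitochondrial share as a covariate the difference was -0.30 ± 0.14 (SE; edgeR adjusted p = 0.783). The mitochondrial share was 22.1%, 26.1% and 25.1% in the saline females against 24.9%, 31.3% and 28.9% in the saline males.

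**Figure D2:**
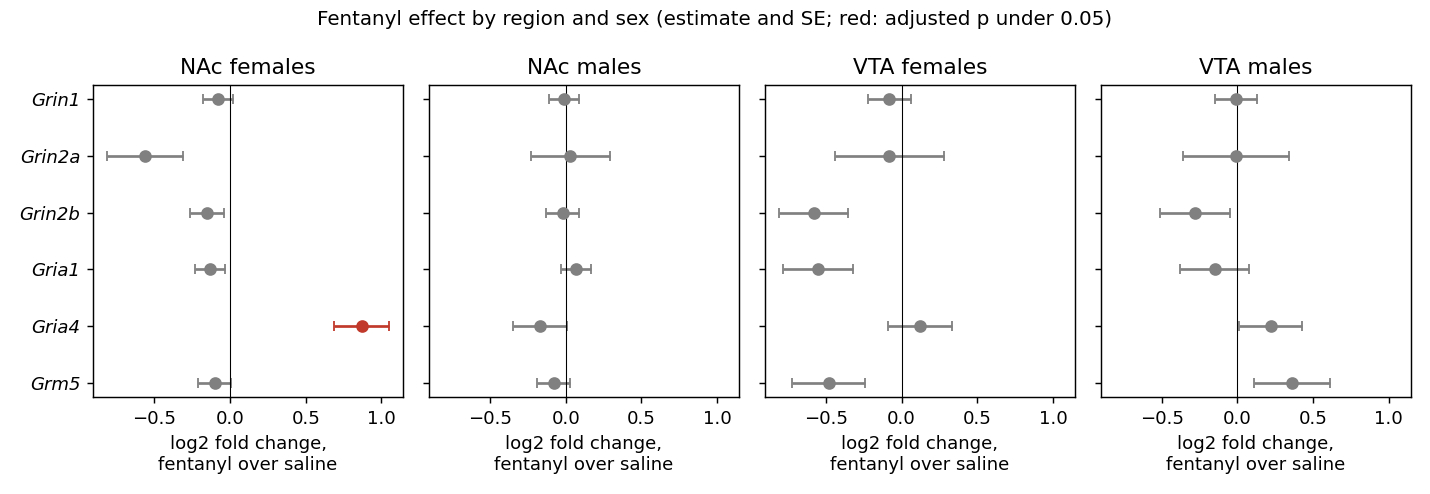
Log2 fold change of fentanyl over saline with its SE for the 6 genes, from edgeR, in NAc females, NAc males, VTA females and VTA males. Red marks an adjusted p under 0.05, which Gria4 in NAc females reached at 0.87 ± 0.18, and grey marks all other estimates.

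Because Gria4 and the mitochondrial share moved together in both contrasts, each of the 6 genes was related to that share across the libraries of each region, which made 12 relations. These were computed after seeing the data. Permutations ran over all libraries of a region regardless of group, so their p-values also carry the differences between groups. In the 14 NAc libraries Gria4 log2 CPM gave Pearson's r = 0.902 (permutation p = 7e-05, adjusted 0.00084) and Spearman's rho = 0.789 (permutation p = 0.0014, adjusted 0.0168). Without the 2 libraries farthest from the median share, r was 0.764. The correlation of deviations from the group means was 0.801, and r was 0.949 in the 7 female and 0.662 in the 7 male NAc libraries. In the 10 VTA libraries Gria4 gave r = 0.768 (permutation p = 0.0118, adjusted 0.0678) and rho = 0.721 (permutation p = 0.0236, adjusted 0.0812). Without the 2 farthest libraries the VTA value was 0.507, so that it rests in part on them, and within groups it was 0.895.

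For the other 5 members in the NAc, r ran from -0.385 for Grin2a to -0.0133 for Grm5, with adjusted permutation p-values of 0.419 to 0.96. Their rho ran from -0.393 to 0.13 (adjusted permutation p = 0.395 to 0.66), and r without the 2 farthest libraries from -0.525 to -0.112. Within groups r ran from -0.053 for Grin1 to 0.339 for Grm5. In the 7 male NAc libraries Grm5 had r = 0.688, close to the 0.662 of Gria4, and in the 7 female libraries it had -0.168. In the VTA, Grin2b had r = -0.716 (permutation p = 0.0169, adjusted 0.0678) and Gria1 had r = -0.612 (permutation p = 0.0542, adjusted 0.163). For Grin2b rho was -0.709 (permutation p = 0.0271, adjusted 0.0812), r within groups -0.39 and r without the 2 farthest libraries -0.712. For Gria1 rho was -0.758 (permutation p = 0.0157, adjusted 0.0812), r within groups -0.38 and r without the 2 farthest libraries -0.545. In the VTA r was -0.273 for Grin1, -0.22 for Grin2a and 0.17 for Grm5, with adjusted permutation p-values of 0.628 to 0.705. The mitochondrial share also separated treatments in the VTA, with 21.3% to 26.9% in the 6 fentanyl libraries against 17.6% to 21% in the 4 saline libraries. In the NAc fit with the share as a covariate, Gria4 had a slope of 0.08 ± 0.02 log2 units per percentage point (SE; edgeR adjusted p = 0.0169), and 129 of 13248 genes had a slope past the threshold. The mitochondrial counts are part of the library total behind CPM. When scaled to the total without them, the Gria4 change in NAc females was 0.79 (edgeR adjusted p = 0.0035).

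**Figure D3:**
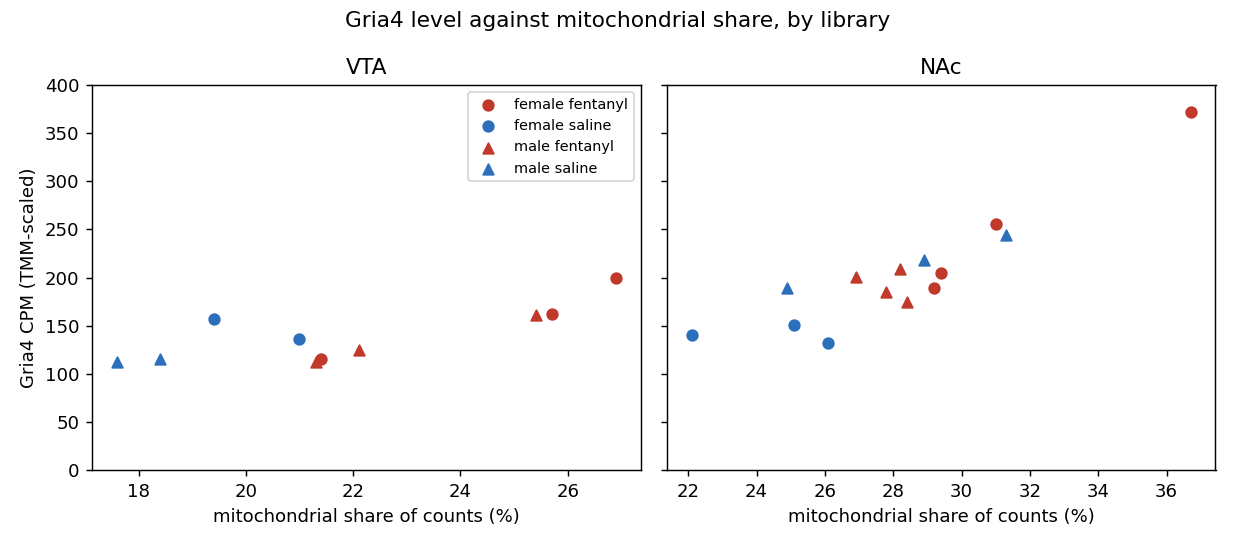
Gria4 level in CPM against the mitochondrial share of counts in percent, 1 point per library, in the VTA (left) and the NAc (right). The NAc library of fentanyl female 1 stands at the upper right with 36.7% and 372 CPM, and the saline females lie at the lower left with 132 to 151 CPM.

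In the VTA no member was called in any comparison of fentanyl with saline. EdgeR called 0% of the 14400 genes tested in females, in males, over both sexes and for the difference between the sexes, with 1098, 648, 1271 and 476 genes at an unadjusted p under 0.05. DESeq2 called 37, 7, 39 and 1 genes in these comparisons. The saline groups held 2 rats each, which limits what could be detected.

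Grin2b had 117, 68.7 and 105 CPM in VTA libraries of fentanyl females 1, 2 and 7, against 116 and 176 CPM in those of saline females 1 and 2. The groups overlapped by a narrow margin, and the log2 fold change was -0.58 ± 0.23 (SE; edgeR adjusted p = 0.633). Gria1 had 48.6, 28 and 48.1 CPM in the same fentanyl females, against 53.2 and 69.2 CPM in the saline females. These groups did not overlap, but the log2 fold change of -0.55 ± 0.23 (SE) did not pass either (edgeR adjusted p = 0.635). Both values rested much on single rats: without fentanyl female 2 they were -0.39 for Grin2b and -0.33 for Gria1, and without saline female 2 they were -0.26 for Grin2b and -0.36 for Gria1. With the mitochondrial share as a covariate they were -0.33 ± 0.32 for Grin2b and -0.30 ± 0.30 for Gria1 (SE; edgeR adjusted p = 0.984 and 0.985). In VTA males the changes were -0.28 ± 0.23 for Grin2b and -0.15 ± 0.23 for Gria1 (SE), with edgeR adjusted p-values of 0.961 and 0.973. Over both sexes they were -0.43 ± 0.16 for Grin2b and -0.35 ± 0.16 for Gria1 (SE; edgeR adjusted p = 0.486 and 0.564). Grin1, Grin2a, Gria4 and Grm5 had -0.04, -0.05, 0.17 and -0.06 over both sexes, with edgeR adjusted p-values of 0.738 to 0.964.

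Grm5 differed in sign between the sexes in the VTA without passing a test. It had 28.1, 34 and 21.4 CPM in fentanyl females 1, 2 and 7, against 28.4 and 49.6 CPM in saline females 1 and 2. In males it had 29.4, 31 and 35.3 CPM in fentanyl rats 1, 2 and 3, against 21.8 and 27.5 CPM in saline rats 1 and 3. The male groups did not overlap, while the female groups did. The female effect minus the male effect was -0.84 ± 0.34 on the log2 scale (SE; edgeR adjusted p = 1), and was -0.39 without saline female 2, whose 49.6 CPM was the highest VTA value. Grin1, Grin2a and Gria4 had VTA log2 fold changes of -0.08 to 0.22 in females and males, with SEs of 0.14 to 0.36.

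Whether fentanyl acted differently in the regions was tested within the 10 rats, as the VTA effect minus the NAc effect over both sexes. EdgeR called 0% of the 12901 genes, with 707 at an unadjusted p under 0.05 and 2 called by DESeq2. Gria1 had a log2 difference of -0.33 ± 0.14 (SE; edgeR adjusted p = 0.876) and Grin2b of -0.31 ± 0.14 (SE; edgeR adjusted p = 0.879). Gria4 had -0.30 ± 0.23 and Grin2a, in the other direction, 0.35 ± 0.40 (SE; edgeR adjusted p = 0.905 and 0.921). Grin1 had 0.01 ± 0.14 and Grm5 0.06 ± 0.23 (SE; edgeR adjusted p = 0.999 and 0.983). For Gria1 the VTA-minus-NAc log2 difference averaged -2.40 in the 6 fentanyl rats, between -2.74 and -2.18, against -2.08 in the 4 saline rats, between -2.26 and -1.85. The ranges of the treatments overlapped.

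Set over all 8 groups, Grin1, Grin2b, Gria1 and Grm5 had every NAc group mean above every VTA group mean, and the step between the regions exceeded the larger SD of the groups beside it. For Grm5 the highest VTA mean was 39 ± 15 CPM in saline females and the lowest NAc mean 233 ± 38.9 CPM in fentanyl females (SD). For Grin1 these were 303 ± 62.8 CPM in VTA saline females and 506 ± 37.5 CPM in NAc fentanyl males. Within a region, neighbouring group means of these 4 genes differed by less than the larger SD, except Grin2b in the VTA. There Grin2b had 96.9 ± 25.3 CPM in fentanyl females and 128 ± 19 CPM in fentanyl males. Grin2a means ran from 52.7 ± 21.2 CPM in VTA fentanyl females to 84.6 ± 27.6 CPM in NAc saline females, with no step above the larger SD. Gria4 was lowest in VTA saline males at 113 ± 2.71 CPM and highest in NAc fentanyl females at 256 ± 82.9 CPM. No step between neighbours exceeded the larger SD for Gria4, and the NAc saline females, at 141 ± 9.53 CPM, ranked among the VTA groups. Counting error alone would give a coefficient of variation of 1.88% to 8.47% for these genes and groups. The variation seen between rats was as low as 0.751%, for Grin2b in NAc saline males, and as high as 40.2%, for Grin2a in VTA fentanyl females.

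**Figure D4:**
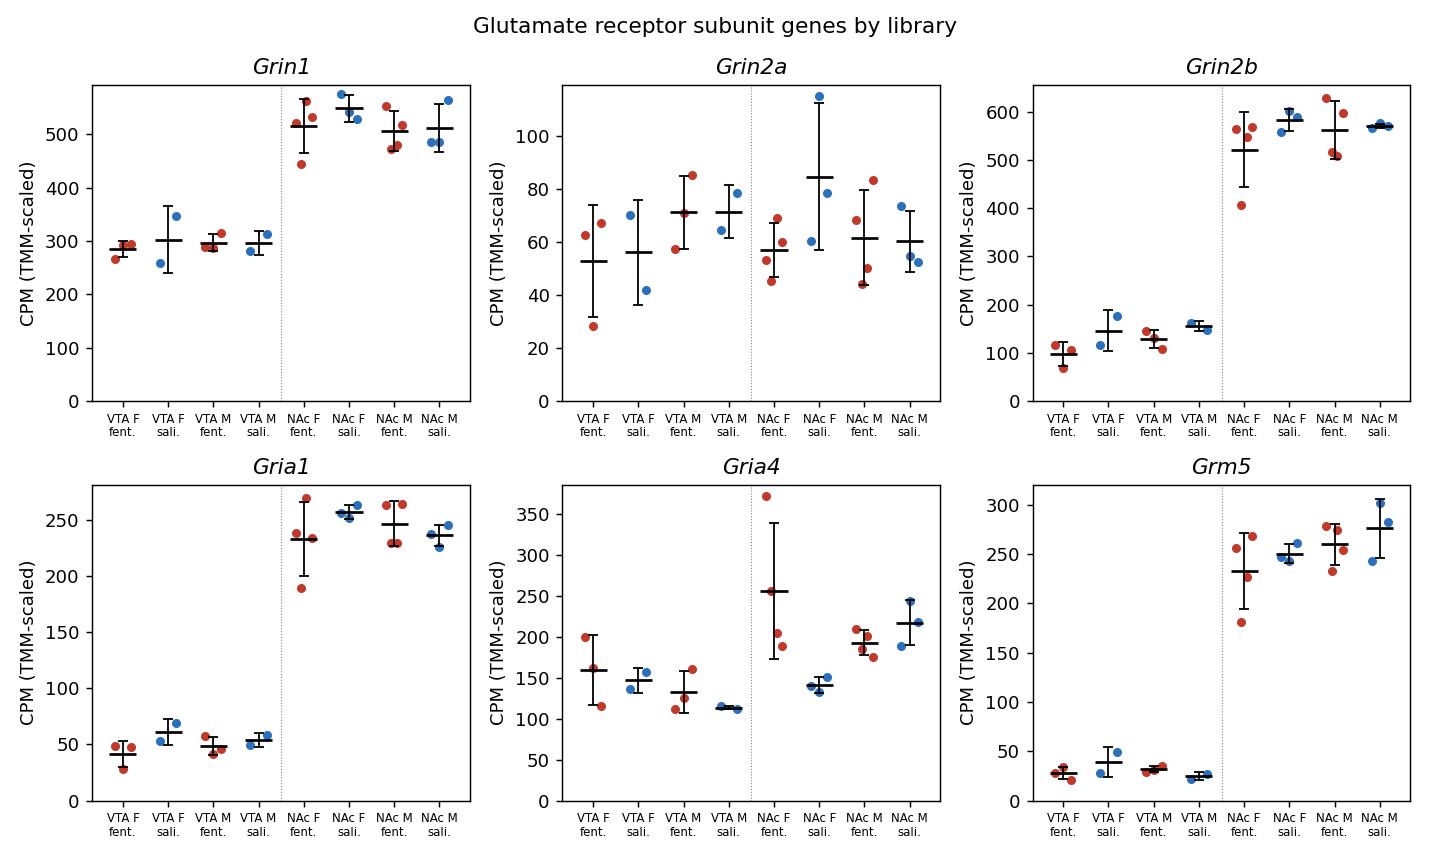
TMM-scaled CPM of the 6 genes in each of the 24 libraries, by region (F, females; M, males), with fentanyl in red and saline in blue; bars are group means and whiskers the SD. Grin1, Grin2b, Gria1 and Grm5 separate the VTA from the NAc, Grin2a does not, and Gria4 is highest at 372 CPM in NAc fentanyl female 1.

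Profiles over the 24 libraries were compared with those of 8850 genes that averaged 10 CPM or more, by the root mean square distance between centred log2 CPM values. The gene nearest to Grin2b was Gria1, at a distance of 0.15, and Grin2b was the second nearest to Gria1. All genes had a median distance to Grin2b of 1.11. The gene nearest to Gria4, at 0.165 against a median of 0.522 over all genes, was ENSRNOG00000030371, a feature of the mitochondrial chromosome. Almost as near, at 0.168, was ENSRNOG00000009958 on chromosome 8. For Grin1, Grin2a and Grm5 the nearest genes, at 0.0961, 0.291 and 0.191, were not members of the 6. Libraries share their rats and their region here, and a small distance describes only that levels ran in parallel.

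Fentanyl female 2 was an extreme library for several members in both regions. In the VTA it was the lowest of 10 for Grin2a (28.4 CPM), Grin2b (68.7 CPM) and Gria1 (28 CPM). In the NAc it was the lowest of 14 for Grin1 (444 CPM), Grin2b (407 CPM), Gria1 (189 CPM) and Grm5 (181 CPM). Its totals of 4.86 M counts in the VTA and 4.72 M in the NAc lay within the range of the other libraries. Its mitochondrial shares, 25.7% in the VTA and 31% in the NAc, were above those of most libraries of the same region.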

How the data were processed

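Total RNA from tissue punches was depleted of ribosomal RNA and read as paired ends, per the labels' protocols. The deposited values are raw counts per Ensembl gene, not normalized, in a separate table for every library. The submitters' processing notes name STAR 2.5.2b, Subread 1.5.2, featureCounts, Trimmomatic 0.36 and DESeq2, without roles. The sources used here do not give the build, annotation release, strand setting or handling of multiply aligned reads; without strand, reads of overlapping genes on opposite strands cannot be told apart.

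The 6 genes, their symbols and the gene lists were chosen with earlier results of these data known. Lists and cell type markers fixed by symbol were not analysed here, because neither the tables nor the reference pairs IDs with symbols for them. All 6 members were to be named in every comparison. Groups came from the labels. Duplicate libraries were looked for among the 26 pairs of replicates; chi-square divided by its degrees of freedom was 2.61 to 20.9, and all libraries were kept.

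Tests used edgeR 4.0.16 in R 4.3.3: TMM, filterByExpr, a robust quasi-likelihood fit, the two-sided F test and Benjamini-Hochberg adjustment over all genes, called under 0.05. All 6 members passed the filter. Each region was fitted with its 4 groups of sex and treatment; regions were compared within 10 rats with rat as a block, the pairing coming from the animal code (mean residual correlation of a rat's libraries 0.0348, -0.0283 to 0.131). SEs were derived from F. Log2 CPM used a prior count of 2. Correlation p-values used 100000 permutations, two-sided. Alternatives were DESeq2 1.42.0, RLE scaling, scaling to non-mitochondrial totals, no filter, voom of limma 3.58.1, a block for the number in the animal code, fits of only the 2 groups compared, leaving out each library and, added after seeing the data, the mitochondrial share as a covariate. Amplified reads are not independent molecules, so counting errors are a lower limit. The fits were also run on simulated data, for the female contrasts of each region and the regional contrast only. Far fewer genes were changed there than were called between regions, and the outcome is not given here.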

Additional observations from a re-analysis of the deposited data

Results flagged for a closer look

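Among the 12 combinations of a member with an NAc group of 4 libraries, 1 value lay far from the others of its group by Dixon's criterion at 95%. Grin2b had 407 CPM in the NAc library of fentanyl female 2, against 547 to 568 CPM in the other 3 fentanyl females. Chance alone gives such a value in about 1 of 20 groups. Without this library the Grin2b log2 fold change in NAc females was not called either.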

How the results depend on the processing

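Of the 6 called values (5 regional differences and Gria4 in NAc females), 105 of 107 alternatives kept direction and call. The 2 exceptions are Gria4 with the mitochondrial share as a covariate, at 0.25 in NAc females, where 0 members were called, and -0.08 between regions. Of 60 values not called, 1159 alternatives gave 1071 with the same direction and side, 73 reversed and 15 past the threshold. For Gria4, 1 member was called over both sexes of the NAc under DESeq2, no filter and the replicate block, and when leaving out single libraries 0 to 1. For the difference between sexes in the NAc 1 was called under DESeq2, non-mitochondrial scaling, no filter and the replicate block, and 0 to 1 leaving out libraries. For saline females minus saline males 1 was called with no filter, and 0 to 1 leaving out libraries. With no filter, 1 member (Grin2b) was called in VTA females and over both sexes of the VTA.

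No pairing of libraries within a region by the number in the animal code was seen. The mean residual correlation of same-numbered libraries was -0.00757 over 12 NAc pairs (-0.0991 to 0.163) and 0.00119 over 10 VTA pairs (-0.279 to 0.198). This check cannot exclude such pairing, since libraries of the same rat gave only 0.0348 (-0.0283 to 0.131). The replicate block on that number gave a Gria4 change of 1.13 in NAc females. It reversed NAc males for Grin1 (0.00), Grin2a (-0.23), Gria4 (0.02) and Grm5 (0.01), Grin2a in VTA males (0.20), Grm5 over both sexes of the VTA (0.01) and the Gria4 sex difference in the VTA (0.06). With no replicate block for rat, the Grin1 region-by-fentanyl term was -0.00 and the same 5 members were called between regions.

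Grin2a between regions was 0.00 by DESeq2 and 0.03 under non-mitochondrial scaling, no filter and the mitochondrial covariate. That covariate also reversed Gria4 in VTA females (-0.43), VTA males (-0.38) and both (-0.41), Grin1 in VTA males (0.08) and both (0.04), and Gria1 in VTA males (0.13).

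Leaving out single libraries reversed small values, which ranged as follows. In NAc females Grm5 was -0.17 to 0.01. In NAc males Grin1 was -0.06 to 0.06, Grin2a -0.15 to 0.21 and Grin2b -0.08 to 0.03. Over both sexes of the NAc Gria1 was -0.07 to 0.01, and the Grm5 sex difference was -0.09 to 0.09. In VTA females Grin1 was -0.27 to 0.14, Grin2a -0.41 to 0.34 and Gria4 -0.08 to 0.31. In VTA males Grin1 was -0.09 to 0.07 and Grin2a -0.16 to 0.14. Over both sexes of the VTA Grin1 was -0.14 to 0.06, Grin2a -0.21 to 0.16 and Grm5 -0.23 to 0.16. VTA sex differences were -0.26 to 0.15 for Grin1, -0.40 to 0.36 for Grin2a, -0.56 to 0.02 for Grin2b and -0.30 to 0.09 for Gria4. Grin2a between regions was -0.10 to 0.16, and the region-by-fentanyl term was -0.11 to 0.07 for Grin1, -0.04 to 0.59 for Grin2a and -0.07 to 0.34 for Grm5. The causes were not tested.

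The number of all genes called in NAc females, 1788 in the fit reported, was 755, 1003 and 923 without saline female 1, 2 or 4, 1102 with only the 2 groups compared, and 6 with the mitochondrial covariate. Over both sexes of the NAc, 995 genes became 544 without fentanyl male 2, 518 and 315 without saline male 1 or 4, 455, 600 and 534 without saline female 1, 2 or 4, 341 with the replicate block and 197 with the covariate. The 102 genes of the NAc sex difference became 59, 43 and 43 without fentanyl male 1, 3 or 7, 167 and 299 without fentanyl female 2 or 8, 20 without saline male 3, and 23, 49 and 41 without saline female 1, 2 or 4. They were 256 by DESeq2, 388 with no filter, 236 with the replicate block and 0 with the covariate. The 50 genes of saline females minus saline males became 136 without fentanyl female 1, 10 without saline male 3, 12, 16 and 17 without saline female 1, 2 or 4, 120 by DESeq2, 210 with no filter, 13 with the replicate block and 12 with the covariate. With no filter, edgeR called 418 genes in VTA females, 114 in VTA males, 499 over both sexes, 109 for the VTA sex difference and 129 for the region-by-fentanyl term, against 0 in each as reported. Group levels in CPM without mitochondrial counts were higher by construction for all 48 values, 46 of them by more than 1 SD. In the VTA, leaving out a saline rat left 1 in its group, which was then assumed to vary like the other groups.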
